A study of Homo sapiens with 4 samples.

Results

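The regions described here are TBX3 binding summits that lie in simple repeats or in low complexity sequence and that were found in both ChIP replicates. A summit is the single base that the deposited list gives for a peak. A replicate 1 summit was taken when its deposited annotation named a repeat of the class simple repeat or low complexity, and when it and a replicate 2 summit were each other's nearest summit within 200 bp. The rule found 231 regions among the 22702 regions shared by both replicates, of which 217 were simple repeats and 14 were low complexity sequence.

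Binding was measured by ChIP-seq, in which DNA precipitated with a protein is sequenced, in 501mel, an established human melanoma cell line. TBX3 carried a 3xHA peptide tag and was precipitated with the anti-HA antibody 12CA5 in 2 samples, and 2 input samples of unprecipitated chromatin were not analysed here. The file names add an "i" before TBX3 that the labels do not explain, and no label gives the promoter or clone behind the tagged protein or says that the replicates came from separate cultures. All samples share the cell line and carry no other treatment in the labels, so the single ChIP group was described without a contrast between conditions.

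TBX3 is a repressor of the T-box family, a group of transcription factors that bind DNA through a shared domain and recognise the T-box element, whose core is AGGTGTGA. Simple repeats are runs in which a short unit is copied head to tail, and low complexity sequence is rich in a few bases without a regular unit. Alternating TG/CA runs are spread through the arms of human chromosomes, in introns and between genes. The pentanucleotide AATGG is the unit of the classical human satellites II and III, which form heterochromatin near centromeres and on the long arm of the Y chromosome.

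The units below are shown because they account for most of the regions, for the highest scores or for the closest matches to the T-box core. Each is the deposited repeat unit copied to 24 bases on the strand that holds the match, and it is not a read of the genome at any one region. Capitals mark the first match to a stretch of the T-box core: 6 bases where the unit holds GGTGTG or a match to AGGTGT or to GTGTGA, and otherwise the 5 bases GTGTG or the 4 bases GGTG.
TG/CA unit, 78 regions: GTGTGtgtgtgtgtgtgtgtgtgt
AATGG unit, 72 regions: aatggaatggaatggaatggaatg
AATCGAATGG unit, 4 regions: aatcgaatggaatcgaatggaatc
AG unit, 14 regions: agagagagagagagagagagagag
ACC unit, 5 regions: GGTGgtggtggtggtggtggtggt
AGC unit, 3 regions: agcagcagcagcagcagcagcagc
AACCCT unit, 2 regions: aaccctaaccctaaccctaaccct
ATCGCC unit, 1 region: atcgccatcgccatcgccatcgcc
ACACC unit, 1 region: GGTGTGgtgtggtgtggtgtggtg
ACACCT unit, 1 region: AGGTGTaggtgtaggtgtaggtgt
ACACTCACTC unit, 1 region: gagtgaGTGTGAgtgagtgtgagt
ACAGGTG unit, 1 region: acaGGTGacaggtgacaggtgaca

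A pair of families held most of the regions. After rotations and both strands of a unit were given one name, TG/CA runs made up 78 of 231 regions (33.8%, 95% Wilson interval 28.0 to 40.1%) and AATGG runs made up 72 (31.2%, 25.5 to 37.4%). The remaining 81 regions were spread over many units. Of the 40 distinct units and low complexity names, 26 had a single region and 12 had from 2 to 19. The most frequent of these were AG runs with 14 regions, G-rich sequence with 8 and GA-rich sequence with 6. By unit length, 92 regions had a unit of 2 bases and 81 had a unit of 5 bases. Intervals of shares cover counting error only, and regions are not replicate samples.

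No repeat unit of a shared region, copied in tandem and read on both strands, spelled the whole core AGGTGTGA (0 of 217 simple repeat regions). Each of its 6-base stretches occurred in a single region: GGTGTG in the ACACC region, AGGTGT in the ACACCT region and GTGTGA in the ACACTCACTC region. The 5-base stretch GTGTG, which lies within GGTGTG and within the core, occurred in 81 regions (37.3%), namely in all 78 TG/CA regions, as the unit requires, and in 3 others. It occurred in none of the AATGG regions. The 4-base stretch GGTG, which lies within GGTGTG and AGGTGT, occurred in 10 regions (4.61%), none of them TG/CA or AATGG. Among all simple repeat summits, shared or not, GTGTG was spelled by 145 of 407 in replicate 1 (35.6%) and by 170 of 457 in replicate 2 (37.2%), so the share in shared regions was close to that of each list. All stretches other than the whole core and GGTGTG were added to the search after the lists had been read, and bases next to the repeats were not searched.

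The whole core was spelled by the units of 2 summits, both found in replicate 2 and without a partner in replicate 1. They lay on chromosome 16 at position 88637358, in a (TCACACC)n run nearest to IL17C, and at position 86932586, in an (AGGTGTG)n run nearest to LINC02181. All positions are on the build hg38. Their scores were 33.5 and 14.3, at ranks 10546 and 19861 of the 40494 replicate 2 summits. The shared ACACC region, on chromosome 14 at 65817853, had scores of 3.91 and 3.68 in replicates 1 and 2. The shared ACACCT region, on chromosome 20 at 61218232 and nearest to the cadherin gene CDH4, had scores of 5.76 and 6.91. The peak score is the authors' own value for a peak, its scale is not stated, and it starts just above 2 in both lists. The ACACTCACTC region, on chromosome 2 at 69762880 in an intron 20906 bp from the transcription start site (TSS) of the annexin gene ANXA4, had 45.1 and 59.6. Its score percentiles of 83.5 and 84.6, counted upwards from the lowest score of each list, place it in the upper part of both lists, while the ACACC and ACACCT regions lay near the low end. These regions were named after their values were seen.

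The deposited annotation placed the 2 main families in different parts of the genome. Of the 78 TG/CA regions, 45 were in introns (57.7%, 46.6 to 68.0%) and 33 between genes. None of the 57 AATGG regions with an annotation was in an intron, which allows a share of up to 6.31% (Wilson), and all 57 were intergenic. That bound takes regions as independent and is too tight, because these lay mostly close together on 6 named chromosomes. Another 15 AATGG regions lay on unplaced or unlocalised sequences for which the lists give no annotation. Introns held 29 of 64 regions of the other simple repeats (45.3%) and 10 of 14 low complexity regions (71.4%). Of the summits with any repeat name, 14066 in replicate 1 and 17536 in replicate 2, 0 were annotated at promoters, exons or gene ends, so a region could only be intronic, intergenic or without annotation.

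**Figure D1:**
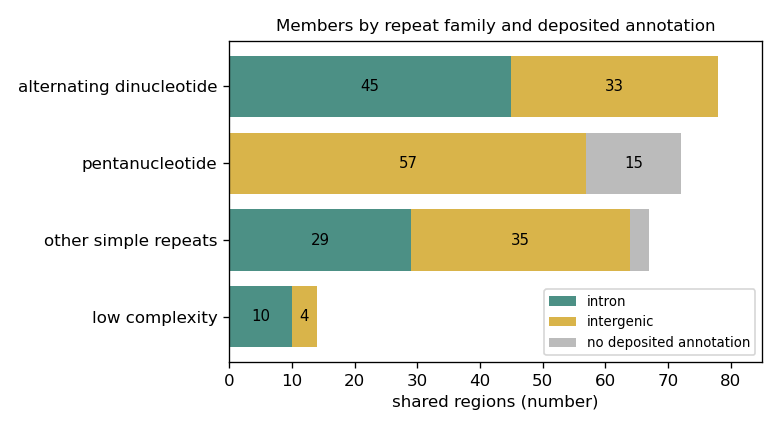
Number of shared regions (x axis) in each repeat family (y axis), coloured by the deposited annotation of the replicate 1 summit. The alternating dinucleotide is the TG/CA family, with 45 intronic of 78 regions, and the pentanucleotide is the AATGG family, with 57 intergenic regions, 15 without annotation and none in introns.

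Over all families, 84 of 213 annotated regions were in introns (39.4%), against 6412 of 11774 shared intronic or intergenic regions in no annotated repeat (54.5%). By a two-sided Fisher's exact test the odds ratio was 0.545, with a 95% interval of 0.413 to 0.719 and an adjusted p = 6.029e-05 over 4 tests (p = 1.507e-05 before adjustment). Such p-values come from counts of regions and do not measure the spread between cultures. They also count neighbouring AATGG regions as independent, which makes them too small. Without the AATGG family the share was 84 of 156 (53.9%) and the odds ratio was 0.976 (0.711 to 1.34, the same exact test, adjusted p = 0.936), so the difference did not pass the test without that family. The share was 42.8% over all shared regions with an intronic or intergenic annotation. Nor did the difference pass against shared regions in interspersed repeats (odds ratio 0.758, exact test, adjusted p = 0.233) or against all other intronic or intergenic shared regions (0.870, exact test, adjusted p = 0.662). Of the 84 intronic regions, 32 were in a first intron (38.1%), against 32.0% of the intronic regions in no annotated repeat.

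AATGG regions lay far from genes and TG/CA regions did not. The median distance from the summit to the nearest TSS was 251629 bp for AATGG regions, with a range of 71074 to 942558 bp, and 44164 bp for TG/CA regions. It was 40234 bp for the other simple repeats, 34185 bp for low complexity regions and 40852 bp for regions in no annotated repeat. More than 100 kb separated 53 of 57 AATGG regions (93.0%) from a TSS, against 20 of 78 TG/CA regions (25.6%), 23.8% of regions in no annotated repeat and 34.9% of all shared regions. In all, 29 of 213 regions lay within 10 kb of a TSS (13.6%), beside 16.9% of all shared regions, and they comprised 14 TG/CA regions, 12 of the other simple repeats, 3 low complexity regions and no AATGG region. Against the 1907 of 11774 regions in no annotated repeat (16.2%), the odds ratio was 0.816 (0.550 to 1.21, the same exact test, adjusted p = 0.348), a difference that did not pass the test. Over all summits of the replicate 1 list, paired or not, the odds ratio was 0.680 and passed (exact test, adjusted p = 0.0161), and over those of the replicate 2 list it was 1.07 and did not (exact test, adjusted p = 0.599). Within 50 kb the odds ratio was 0.546 and passed the exact test (adjusted p = 3.015e-05). Within that distance lay 88 of 213 regions (41.3%), beside 49.5% of all shared regions. Without AATGG, which had 0 of 57 there, the share was 88 of 156 (56.4%), next to 56.3% of regions in no annotated repeat.

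**Figure D2:**
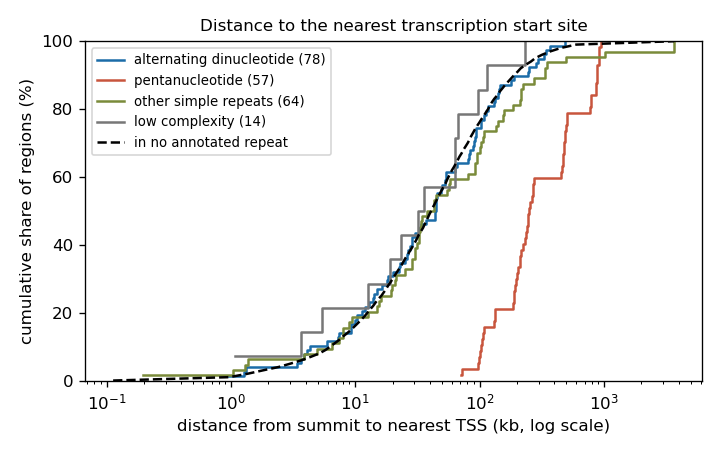
Cumulative share of regions (y axis, %) by distance from the replicate 1 summit to the nearest TSS (x axis, kb, log scale) for each repeat family, with the number of regions in brackets, and for shared regions in no annotated repeat (dashed line). The pentanucleotide (AATGG) curve starts at 71074 bp and lies to the right of the others over most of its range. It ends at 942558 bp, short of the other simple repeats (3664586 bp) and the dashed line (3663487 bp). The alternating dinucleotide (TG/CA) curve follows the dashed line over most of its range.

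The families also differed in how they were spread over chromosomes. TG/CA regions occurred on 21 chromosomes, with at most 8 on any one. AATGG regions occurred on 12 sequences, of which 6 were named chromosomes, and 28 of the 72 (38.9%) were on chromosome Y. No region of another family described here lay on Y. Chromosome 10 held 11 AATGG regions, chromosome 21 held 7 and chromosome 20 held 5. Consecutive AATGG regions on the same sequence were a median of 3850 bp apart, and 57 of 60 such gaps were under 100 kb. For TG/CA the median gap was 23177062 bp and 2 of 57 were under 100 kb, so AATGG regions stood in clusters and TG/CA regions mostly stood alone.

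**Figure D3:**
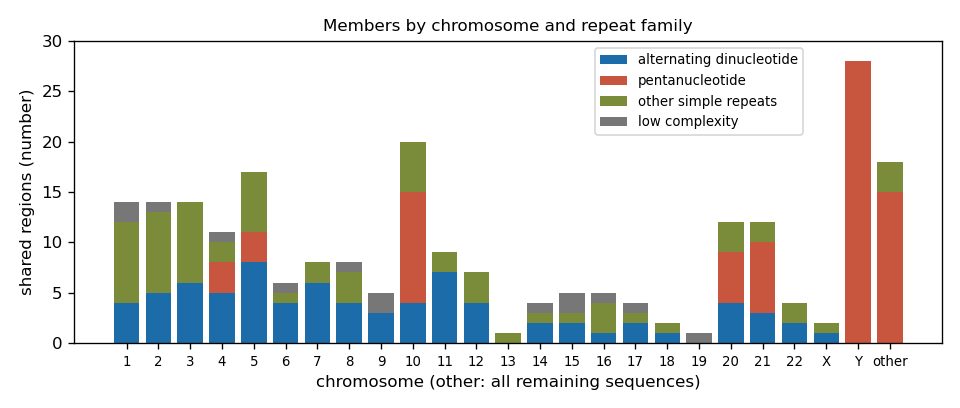
Number of shared regions (y axis) on each chromosome (x axis, with all remaining sequences together as other), stacked by repeat family. The pentanucleotide (AATGG) makes up all 28 regions on chromosome Y and 15 of the 18 on other sequences, while the alternating dinucleotide (TG/CA) is at most 8 on any chromosome.

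The largest AATGG cluster held 19 regions on chromosome Y between 56680197 and 56768603, a span of 88406 bp with a median spacing of 4326 bp. Its nearest annotated gene was SPRY3, a member of the Sprouty family of receptor tyrosine kinase inhibitors. Its median score percentile was 97.3 in replicate 1 and 94.2 in replicate 2. The cluster of 11 regions on chromosome 10, between 41861814 and 41915874, had medians of 66.1 and 35.1. The cluster of 7 regions on chromosome 21, between 7926407 and 7937691, had medians of 37.8 and 32.0. Smaller clusters on Y had lower medians, 90.3 and 75.7 for 5 regions from 11534373 and 68.4 and 34.5 for 4 regions from 26647440. All 28 AATGG regions on Y had medians of 95.3 and 91.2, and the 44 on other sequences had 56.3 and 35.1. How reads that match several copies of a repeat were placed is not given in the sources used here, and the part of such reads in these scores was not tested. Of all chromosome Y summits, paired or not, 13 of 95 in replicate 1 and 27 of 127 in replicate 2 lay in no annotated repeat. Summits in no annotated repeat made up 56.7% of each whole list. AATGG runs held 32 of the Y summits in replicate 1 and 41 in replicate 2.

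The strand and the length of the deposited AATGG name also varied. The name was given in the A- and G-rich orientation in 55 regions and in the T- and C-rich orientation in 17. A unit of 10 bases, which is the pentanucleotide written out again in the same name, was given in 36 regions, and 24 of these were on Y. The median percentiles were 93.4 and 88.9 for 10-base names, and 66.1 and 49.3 for 5-base names, of which 4 of 36 were on Y. Name length and chromosome therefore moved together. The units AATCG and AATCGAATGG held another 6 regions, none annotated in an intron. A further 15 shared regions carried the AATGG unit under the class satellite and were not counted here, with median percentiles of 67.3 and 55.2.

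The median score percentile of the 231 regions was 61.2 in replicate 1 and 64.1 in replicate 2, beside 63.6 and 70.5 for all shared regions. In replicate 1 the median score was 17.7, with quartiles of 9.28 and 43.6, and in replicate 2 it was 22.4, with quartiles of 9.09 and 61.7. At or above the median of the replicate 1 list were 141 of 213 annotated regions (66.2%), against 69.8% of regions in no annotated repeat (odds ratio 0.846, 0.636 to 1.13, exact test, adjusted p = 0.346). In replicate 2 the shares were 149 of 213 (70.0%) and 79.8% (odds ratio 0.590, 0.439 to 0.794, exact test, adjusted p = 0.00153), and this difference passed the test. Without the AATGG family both passed the exact test, at an odds ratio of 0.673 in replicate 1 (adjusted p = 0.0357) and 0.606 in replicate 2 (adjusted p = 0.0263). Without chromosome Y the replicate 1 odds ratio was 0.694 (exact test, adjusted p = 0.0256). Against shared regions in interspersed repeats neither passed, with odds ratios of 1.13 and 0.830 (exact test, adjusted p = 0.426 for both).

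Counted in both lists together, 128 of 231 regions were at or above both medians (55.4%), beside 62.8% of all shared regions. By family these were 40 of 78 TG/CA regions (51.3%), 43 of 72 AATGG regions (59.7%), 35 of 67 regions of the other simple repeats (52.2%) and 10 of 14 low complexity regions (71.4%). The highest score decile of both lists held 31 of the 231 regions, a share close to that of all shared regions (2823 of 22702, 12.4%). AATGG regions made up 19 of these 31, of which 17 were in the cluster of 19 on Y, and TG/CA regions made up 5.

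AATGG regions had lower score percentiles in replicate 2 than in replicate 1, while TG/CA regions shifted upwards as most shared regions did. The score percentile was higher in replicate 2 for 58 of 78 TG/CA regions (74.4%), beside 67.0% of all shared regions, with a median difference of 6.61 percentile points, replicate 2 minus replicate 1 (quartiles -0.19 and 20.4). Regions in no annotated repeat were higher in 74.1%, with a median difference of 5.04, and the median difference over all shared regions was 3.63. For AATGG it was higher in 13 of 72 regions (18.1%) and lower in 59, with a median difference of -5.99 (quartiles -13.2 and -1.83). The lower values in replicate 2 were found both on Y, in 24 of 28 regions with a median of -3.22, and elsewhere, in 35 of 44 regions with a median of -9.12. The same direction was seen in 14 of the 15 regions that carry the unit under the class satellite. Over all satellite summits of a list, paired or not, the median percentile was 55.4 in replicate 1 and 50.0 in replicate 2. For all AATGG summits it was 43.8 and 45.8, so the lower AATGG values hold for shared regions. The other simple repeats were higher in 40 regions and lower in 27, and low complexity regions were higher in 7 and lower in 7. With 2 samples this shift has no replicate check, and AATGG regions share a sequence and are not independent of each other. The lists also differ in length, 32479 and 40494 summits, so a percentile can differ between them without a change in binding. The part of list length in these differences was not tested.

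**Figure D4:**
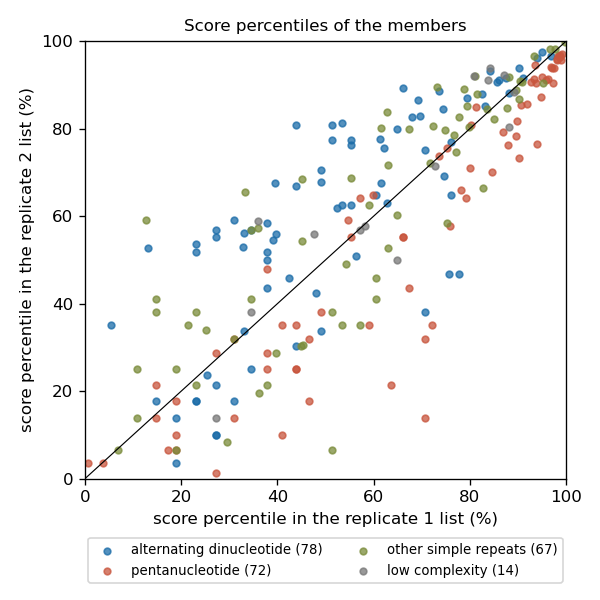
Score percentile of each shared region in the replicate 1 list (x axis, %) and the replicate 2 list (y axis, %), coloured by repeat family, with the number of regions in brackets and the line of equal percentiles. Of the alternating dinucleotide (TG/CA) points 58 of 78 lie above the line, and of the pentanucleotide (AATGG) points 59 of 72 lie below it.

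Within each family the order of scores was largely shared by the replicates. As a description across regions, Spearman's rho of the scores was 0.95 for 72 AATGG regions, 0.811 for 78 TG/CA regions and 0.852 for all 22702 shared regions. These regions come from the same 2 libraries.

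The rule bounds the distance between paired summits, so it is given as a description. Its median was 26 bp, against 28 bp for all shared regions, and 155 of 231 pairs (67.1%) were within 50 bp, against 71.4% of all shared regions. The summits fell on the same base in 10 pairs. AATGG pairs were a median of 28.5 bp apart, 8 bp on Y and 42.5 bp elsewhere, and TG/CA pairs were 21.5 bp apart. The replicate 2 summit lay in a run of the same unit in 72 of 72 AATGG regions and in 42 of 78 TG/CA regions (53.9%, 42.9 to 64.5%). In all it did so in 157 of 231 regions (68.0%), whereas in 58 it lay in no annotated repeat, in 12 in an interspersed repeat and in 4 in a simple or low complexity repeat of another name. Of the 36 TG/CA regions without the same unit, the replicate 2 summit lay in no annotated repeat in 24, in an interspersed repeat in 8 and in a simple repeat of another unit in 4. Pairing within 200 bp can fix the same unit in advance where a run is long. Run lengths were not examined, so the 72 of 72 does not show closer agreement of AATGG summits. At the pairing limit, the widest pairs inside it were 190, 191 and 197 bp apart, and the nearest outside it were 202, 208 and 210 bp apart.

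Fewer summits in these repeats had a partner than other summits did. In replicate 1, 231 of 428 (54.0%, 49.2 to 58.6%) had a partner, against 70.1% of the 32051 other summits and 63.8% of other summits in the same score deciles. In replicate 2 the values were 218 of 479 (45.5%, 41.1 to 50.0%), 56.2% and 52.0%. Interspersed repeats also had a lower share than all other summits, but they were closer to the share in the same score deciles. Summits in interspersed repeats had a partner in 63.3% in replicate 1 and 48.3% in replicate 2. Other summits in the same score deciles, which here include the interspersed ones themselves, had 64.2% and 50.5%. In replicate 1 a partner was found for 72 of 133 AATGG summits (54.1%, against 68.5% in the same deciles) and for 78 of 139 TG/CA summits (56.1%, against 61.0%). In replicate 2 it was found for 72 of 139 AATGG summits (51.8%, against 56.0%) and for 73 of 164 TG/CA summits (44.5%, against 52.0%). The AATGG share was below that of its deciles by more in replicate 1 than in replicate 2. Since the rule used the pairing, these shares are given without a test.

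The highest-scoring region, by the sum of its ranks in the 2 lists, was a (CGCCAT)n run on chromosome 22. Both summits were at 30196483, between genes and 42711 bp from the TSS of LIF-AS1, a transcript antisense to the cytokine gene LIF. Its scores were 519.7 in replicate 1 and 640.8 in replicate 2, at ranks 37 and 40 of the 2 lists. It stood well above the others, since the second, a (CT)n run at 98737351 on chromosome 3, had 180.1 and 272.4, at ranks 722 and 710. That run was annotated in an intron, 3895 bp from the TSS of ST3GAL6, a sialyltransferase gene. A (TC)n run on chromosome 2 at 32826730, in an intron 1297 bp from the TSS of the non-coding gene LINC00486, had scores of 142.7 and 268.4. The replicate 2 summit of this last region lay 22 bp away and outside any annotated repeat. The other 7 of the first 10 were AATGG regions of the large cluster on Y, whose replicate 1 scores ran from 195.5 to 274.8 and whose replicate 2 scores ran from 163.6 to 208.1. The first of them, at 56715449 and 238806 bp from the TSS of SPRY3, had 274.8 and 208.1, at ranks 289 and 1171. In all 7 the score percentile was lower in replicate 2, and in the other 3 it was higher.

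TG/CA runs were absent from the first 10 regions. The first TG/CA region was the 11th, a (CA)n run on chromosome 7 with both summits at 116417861, between genes and 81740 bp from the TSS of CAV2, which encodes a caveolin. Its scores were 148.6 and 191.8, at ranks 997 and 1367.

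Near genes, the 2 AG runs at ST3GAL6 and LINC00486 had the highest ranks among the 29 regions within 10 kb of a TSS. The third was a (CTAACC)n run of the telomere-type unit AACCCT at 10167 on chromosome 10, 1040 bp from LINC02564, with scores of 68.7 and 80.9. The other region of that unit, at 11156 on chromosome 5, named after its values were seen, scored 75.9 and 94.2. The fourth was an (AC)n run on chromosome 22 at 37985860, 1328 bp upstream of the TSS of SOX10, the neural crest factor that drives the melanocyte lineage. Its scores were 53.0 and 98.6, at ranks 4548 and 3548, and the deposited annotation places it in the last intron of an overlapping transcript.

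The next regions near genes were of several families. A (TG)n run on chromosome 16 at 24199419, 3697 bp from the microRNA gene MIR1273H, scored 52.0 and 94.5. A (GGTGAG)n run on chromosome 1 at 220834167, in an intron 4912 bp from the TSS of the non-coding gene LINC01352, scored 39.5 and 105.4. GA-rich sequence on chromosome 19 at 6587512, in an intron near CD70, which encodes a ligand of the tumour necrosis factor family, scored 39.2 and 105.6. The last 3 of the 10 were a (GT)n run at 221335362 on chromosome 1, 934 bp from C1orf140, with 42.8 and 75.9, GA-rich sequence at 89064278 on chromosome 1, 1082 bp from the interferon-induced gene GBP1, with 61.5 and 46.5, and a (GT)n run at 7936541 on chromosome 20, 3905 bp from HAO1, a glycolate oxidase gene, with 23.7 and 68.1. By score percentile, 8 of these 10 were higher in replicate 2, and those of LINC02564 and GBP1 were lower. The lists may not share a scale, so the scores themselves show an order within each list only.

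Few genes of the lists examined had such a region nearby. Of 33 pigmentation genes, 2 were the nearest gene within 50 kb of a region, SOX10 and IRF4, while 27 were the nearest gene of at least one shared region of any kind at that distance. IRF4 encodes a transcription factor that acts on the tyrosinase gene in melanocytes. Its region was an (AGCAGC)n run at 371850 on chromosome 6, between genes and 19889 bp upstream of the TSS, with scores of 116.6 and 91.4 at ranks 1568 and 3918. None of 14 melanoma and growth control genes and none of 12 T-box genes had one, against 3 and 6 with any shared region. These gene counts are not adjusted for set size, since the repeat regions number 231 and shared regions of any kind number 22702. Whether repeat regions were nearest to listed genes more or less often than other shared regions was not tested. The naming of repeats leaves out summits annotated at promoters. The summit closest to a RefSeq promoter window (GRCh38.p14) was 119 bp from one, at GFPT1, the gene for the first enzyme of the hexosamine pathway. That region, a (CGGCCCC)n run at 69387059 on chromosome 2, had scores of 8.50 and 23.9, was 195 bp from the TSS and was chosen after its values were seen.

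Among smaller units with at least 2 regions, median score percentiles ran from low to high, and scores could range widely inside a unit. The medians in replicates 1 and 2 were 21.05 and 13.93 for the 2 ACACAT regions, and 90.28 and 89.72 for the 2 AACCCT regions. The 14 AG regions ran from 5.12 to 180.1 in replicate 1 and from 4.16 to 272.4 in replicate 2, with 7 in introns. The 5 ACC regions, whose tandem copies hold GGTG, ran from 4.50 to 32.1 and from 4.90 to 41.9. A (CCACCC)n run at 206224716 on chromosome 1, in an intron 19287 bp from the TSS of SRGAP2, a gene of neuronal migration, was the highest of those that hold GGTG, with 96.2 and 193.3. The ACAGGTG region, on chromosome 12 at 117128376, scored 15.8 and 9.09. Units holding GGTG therefore ranged from the low end of the lists to ranks of 2149 and 1341. These examples were chosen after their values were seen.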

How the data were processed

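The peak lists of the 2 ChIP replicates were used. Per the file headers, each is a list of single-base summits annotated with HOMER annotatePeaks.pl against hg38. Peak scores, as deposited by the authors, have no stated scale and were used within a list only, as ranks or percentiles. The deposited distance to the TSS is in bp. The submitters' processing notes name FastQC 0.11.7, cutadapt 2.8, Bowtie2 2.3.5, MACS2 2.1.2 and SAMtools 1.9 without roles. Read depth is unknown, the number of peaks can depend on it, and no background from input was set beside the peaks.

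Summits were paired as mutually nearest within 200 bp (Python 3.11.15, pandas 2.3.3, SciPy 1.17.1). The pairing and the naming of units were tested on simulated data. Families were units with at least 20 regions. Shares were compared by Fisher's exact test, two-sided, with Benjamini-Hochberg adjustment over 4 tests, against shared intronic or intergenic regions in no annotated repeat. Regions named in full were the 10 with the lowest sum of score ranks, the first of each family, the first 10 within 10 kb of a TSS, and those within 50 kb of a gene in 3 lists. Others are stated as chosen after their values were seen. The members and lists were chosen with earlier results of these data known. A planned search of genome windows around the summits was not run, because no genome sequence was used here. Alternatives covered the pairing distance, repeat classes, annotation, sequences, scores, comparison regions, TSS distance and each replicate left out.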

Additional observations from a re-analysis of the deposited data

How the results depend on the processing

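Of 80 alternative values, 55 kept their direction and their side of the threshold, or stayed within the spread allowed. Leaving out the AATGG family, leaving out chromosome Y, and TG/CA alone were settings chosen after seeing the data. The number of regions was 128 with scores at or above the median of each list, and 428 to 479 when either replicate was left out, which removes the pairing. The median distance between summits was 15 bp with pairing within 50 bp, 16 bp with scores at or above the median and 21.5 bp for TG/CA alone. The odds ratio of the intron share was 0.758 against interspersed repeats, 0.870 against all other intronic or intergenic regions, 0.976 without AATGG and 1.14 for TG/CA alone, and it passed the test in none of these. The odds ratio within 10 kb of a TSS was 1.02 against all other regions, 1.18 without AATGG, 1.13 for TG/CA alone, 0.546 at 50 kb, and 0.680 to 1.07 with a replicate left out, and it passed at 50 kb and without replicate 2. For scores in replicate 1 it was 1.35 with scores at or above the median, 1.13 against interspersed repeats, 0.673 without AATGG, 0.694 without chromosome Y and 0.610 without replicate 2, and the last 3 passed. For scores in replicate 2 it was 0.985, 0.830 and 0.748 with scores at or above the median, against interspersed repeats and against all other regions, and 0.688 for TG/CA alone, and it passed in none of these. Keeping only scores at or above the median selects on the outcome of both score results, so those values say nothing of their stability. Leaving out AATGG, or all but TG/CA, shows how far the values depended on a family, and no cause was tested. The score of a list has no value without that list. No paired analysis was possible because the only group with lists analysed here is the ChIP group, which leaves no contrast for the replicate numbers to pair. Read depth is unknown, so no limit of detection could be given.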
